A study of Mus musculus with 11 samples.

Results

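B cells from the spleens of NOD mice and of the congenic strain NR4 were compared after their B cell receptor had been stimulated with anti-IgM. The comparison rests on 5 of the 11 arrays of the series, the 2 of stimulated NOD cells and the 3 of stimulated NR4 cells, and it covers all 45037 probe sets of the Affymetrix Mouse Genome 430 2.0 array other than controls. The remaining 6 arrays, of unstimulated cells (3 per strain), served as a comparison and helped to estimate the spread. NOD mice are NOD/ShiLtJ, an inbred strain that develops autoimmune diabetes spontaneously. NR4 mice are NOD.NOR-Chr4/DvsJ, a congenic strain that carries chromosome 4 sequence of the related, diabetes-resistant NOR strain on the NOD background. All mice were females of 6 weeks. Each lot pooled 7 to 8 spleens, and B cells were isolated by magnetic depletion of other cells, so that the B cells themselves were left untouched. Cells of each lot were cultured for 2 h in medium alone or with a goat antibody to mouse IgM, given as F(ab')2 fragments at 10 µg/ml. The antibody was the only difference between the culture conditions, and stimulated and unstimulated cells of a strain came from the same lots.

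Anti-IgM cross-links the B cell receptor and mimics its binding of antigen. The kinases Lyn, Syk and Btk then activate phospholipase C, calcium and MAP kinase signalling and NF-kB, and immediate-early genes such as those of the FOS, EGR and NR4A families are transcribed without new protein synthesis. Phosphatases of the DUSP family, Sprouty proteins and RGS proteins dampen the signal. In NOD mice B cells are needed for disease, mainly as cells that present antigen to T cells, and several of the insulin-dependent diabetes (Idd) loci of this strain, among them Idd9 and Idd11, map to chromosome 4.

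The deposited values are log2 signals with every probe set centred on its median over the 11 arrays. A value therefore says how far an array lies above or below that median, and it does not give the abundance of a transcript. Differences are NOD minus NR4, and a difference of 1 is a 2-fold change. The presence of B cell markers could not be checked as a level for the same reason. A probe set is called where limma's adjusted p (Benjamini-Hochberg over all 45037) is under 0.05. In a strain comparison a called probe set may reflect a different amount of transcript or a different sequence under the probes, and these cannot be told apart here. In bulk samples fewer cells of a type and less RNA per cell cannot be told apart either. The means of 4 pairs of 3' minus 5' control probe sets, a sign of RNA integrity, were 0.04 and 0.19 in the stimulated NOD arrays and 0.29, -0.05 and 0.20 in the stimulated NR4 arrays, so the groups overlapped. No pair of arrays held identical values.

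After anti-IgM, 17 probe sets were called, which is 0.0377% of those tested. In NOD, 7 were higher (0.0155%) and 10 lower (0.0222%). They represent 10 genes with a single symbol (Icam2, Zfp979, Cenps and Padi2 higher, Cep85, Ccdc28b, Srgap3, Nsd1, Gm13238 and Znf41-ps lower), 1 probe set with several symbols and 6 with none listed. All 17 differed by more than 2-fold, among 128 probe sets that did so (87 higher, 41 lower). In all 17 the NOD arrays lay entirely to one side of the NR4 arrays, which was the case for 14.1% of all probe sets after anti-IgM and, with 3 arrays a strain, for 6.35% in unstimulated cells (3.64% with NOD above and 2.71% below). Over all probe sets the median difference was -0.00089 and the median size of a difference 0.13, beside a median standard error of 0.19. The count was 8 without NOD replicate 2, 10 without NOD replicate 1 and 9 when the 5 stimulated arrays were fitted alone (limma). An exact two-sided rank test of a single probe set could not go below p = 0.2, because 2 arrays against 3 allow only 10 splits.

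**Figure D1:**
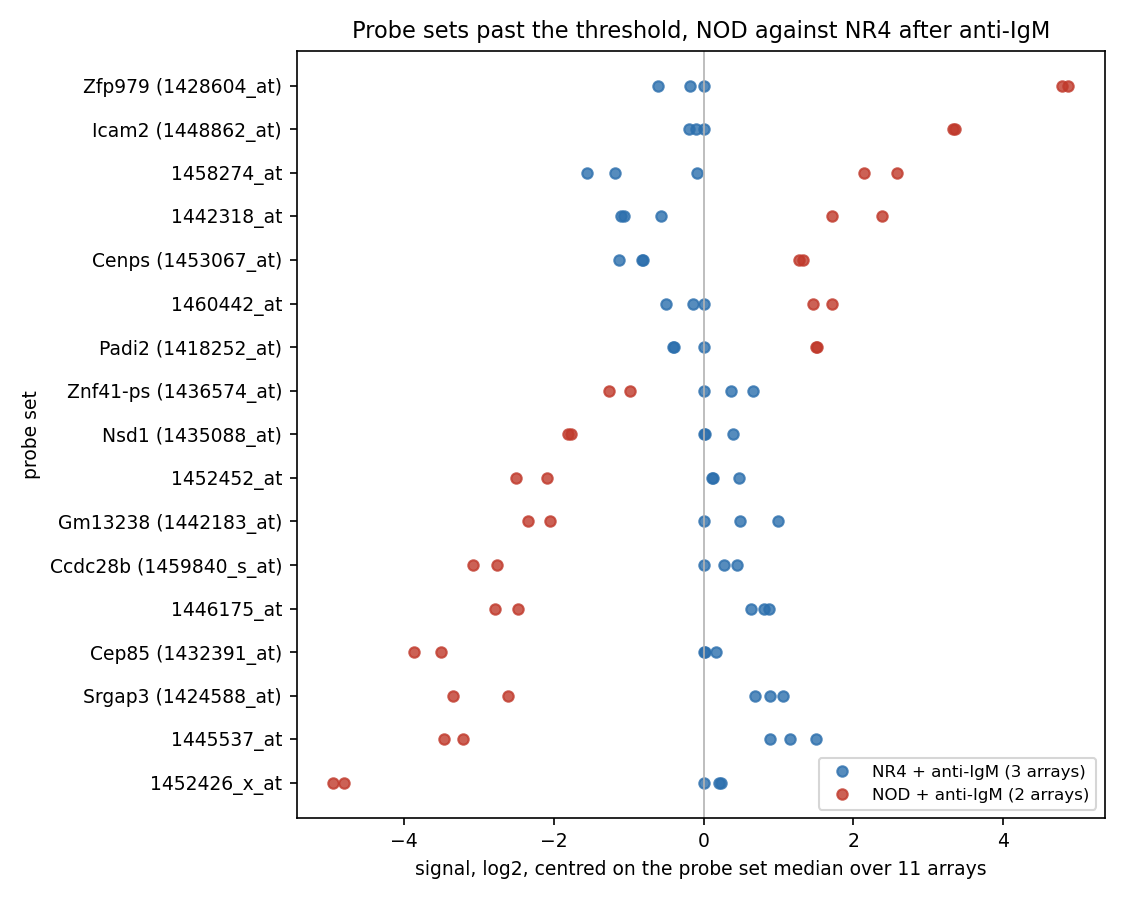
Centred log2 signal (horizontal axis) of the 17 called probe sets (vertical axis) on each of the 5 anti-IgM arrays. Red points are the 2 NOD arrays and blue points the 3 NR4 arrays. The strains are separated in every line, from a difference of 5.08 for Zfp979 at the top to -5.01 for 1452426_x_at at the bottom.

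Among the probe sets higher in NOD, Icam2 had the smallest p. Icam2, on chromosome 11, encodes an adhesion molecule of leukocytes and endothelium that binds the integrin LFA-1. Its NOD arrays read 3.36 and 3.34, and its NR4 arrays -0.10, 0.00 and -0.20. The difference was 3.45 (SE 0.10, 95% interval 3.21 to 3.68), or 10.9-fold, with a limma adjusted p of 7.7e-07. The spread within each strain was a small part of the gap between them. Icam2 lies outside the chromosome that sets NR4 apart by design, and it was called under each of the 20 other settings tried. Of the 49 probe sets of 21 genes for integrins and adhesion partners of ICAM-2, this was the single one called. Over all probe sets 0.0377% were called, so a list of this size would seldom hold another. The list's median difference was 0.03. The integrin subunit Itga4 had an unadjusted p under 0.05 in 3 of its 5 probe sets (0.46, 0.52 and 0.87), and Msn, which links membrane proteins to actin, read 0.60. The list had 6 probe sets with such a p upward and 0 downward, where 2.88% and 1.39% of all probe sets did.

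Zfp979 showed the largest difference of any probe set. The gene encodes a zinc finger protein and lies in a cluster of closely related zinc finger genes on distal chromosome 4. NOD arrays read 4.86 and 4.78, and NR4 arrays -0.18, -0.61 and 0.00. The difference of 5.08 (SE 0.17) is 33.9-fold, with a limma adjusted p of 1.1e-06. Some genes of this cluster have promoters that are close copies of each other. No probe or transcript sequences were compared, so promoter likeness does not show how far a probe set can be assigned to one gene. Printed here are the promoters of Zfp979 and of 3 relatives with a probe set of their own, chosen for that and for their likeness. The windows run from 250 bases before to 50 bases after the annotated start and come from RefSeq, build GRCm38.p6, which is the C57BL/6J reference and not the sequence of NOD or NOR. They are Zfp979 at chr4:147642459-147642758 (minus strand), Rex2 at chr4:147021600-147021899 (plus), Zfp980 at chr4:145670447-145670746 (plus) and Zfp982 at chr4:147492167-147492466 (plus, the closest of 3 annotated starts). Each is written 5' to 3', and capitals mark bases that do not match Zfp979 in a global alignment.
Zfp979: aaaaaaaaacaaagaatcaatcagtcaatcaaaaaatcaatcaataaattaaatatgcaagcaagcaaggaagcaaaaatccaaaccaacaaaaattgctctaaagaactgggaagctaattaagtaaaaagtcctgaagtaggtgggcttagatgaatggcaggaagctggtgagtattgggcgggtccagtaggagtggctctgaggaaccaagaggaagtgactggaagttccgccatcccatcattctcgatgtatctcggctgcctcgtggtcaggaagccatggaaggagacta
Rex2: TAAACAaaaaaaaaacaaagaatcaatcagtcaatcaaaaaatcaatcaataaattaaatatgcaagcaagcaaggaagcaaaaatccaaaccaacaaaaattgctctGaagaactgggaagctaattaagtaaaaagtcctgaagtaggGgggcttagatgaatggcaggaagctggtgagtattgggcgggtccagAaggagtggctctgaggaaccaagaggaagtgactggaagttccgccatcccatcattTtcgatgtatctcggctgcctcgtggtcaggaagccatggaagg
Zfp980: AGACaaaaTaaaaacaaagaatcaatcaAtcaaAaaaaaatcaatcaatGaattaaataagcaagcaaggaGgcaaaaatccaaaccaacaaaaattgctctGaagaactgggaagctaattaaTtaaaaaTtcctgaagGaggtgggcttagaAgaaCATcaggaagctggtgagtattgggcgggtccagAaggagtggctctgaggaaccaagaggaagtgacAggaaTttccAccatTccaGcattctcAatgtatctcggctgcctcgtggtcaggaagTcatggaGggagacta
Zfp982: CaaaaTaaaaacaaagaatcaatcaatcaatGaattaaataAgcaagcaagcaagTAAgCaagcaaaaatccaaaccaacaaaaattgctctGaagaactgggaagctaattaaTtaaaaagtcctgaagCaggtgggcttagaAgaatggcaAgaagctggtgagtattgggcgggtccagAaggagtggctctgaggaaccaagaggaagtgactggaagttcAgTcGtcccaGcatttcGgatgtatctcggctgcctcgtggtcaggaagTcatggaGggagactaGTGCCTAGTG
Rex2 matched Zfp979 at 290 of 300 bases (96.7%), Zfp980 at 274 (91.3%) and Zfp982 at 269 (89.7%). Aligned in the same way, the promoters of Padi2 and Cenps, which are unrelated, matched at 56.3% and 56% of bases. Of 6 further genes of the cluster that were aligned, Zfp600 matched at 96.7%, Zfp985 and Zfp987 at 86.7%, Zfp988 at 82.3% and Zfp981 at 80%, while Zfp993, at 54.3%, was no closer than the unrelated genes.

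The probe sets assigned to these relatives differed between the strains to unlike degrees. The probe set of Rex2 read 0.27 and 0.06 in NOD and 0.15, 0.00 and -0.11 in NR4, and its arrays overlapped (difference 0.16, SE 0.19). That of Zfp980 differed by 0.57 (SE 0.36) with overlapping arrays. Zfp982 had differences of 2.76 (SE 0.46), 1.70 (SE 0.30) and 0.24 (SE 0.23) in its 3 probe sets, none of them called (limma adjusted p = 0.18 for the first). Zfp991, a further member of the cluster, had probe sets that pointed in opposite directions. One read 1.46 and 2.00 in NOD and -0.18, -0.15 and -0.05 in NR4, a difference of 1.86. Another read -2.42 and -1.67 in NOD and 0.33, 0.00 and 0.35 in NR4, a difference of -2.27, and the remaining one differed by 0.03. Both of the separated ones missed the threshold (limma adjusted p = 0.11), and both were called in unstimulated cells.

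The pseudogenes Gm13238 and Znf41-ps, from the same stretch of chromosome 4, were lower in NOD. Gm13238 read -2.34 and -2.05 in NOD and 0.00, 0.48 and 0.99 in NR4. The difference was -2.68 (SE 0.28, limma adjusted p = 0.008). Its call was lost without either NOD array (adjusted p = 0.2 without replicate 1 and 0.0997 without replicate 2). Znf41-ps read -0.98 and -1.27 in NOD and 0.00, 0.36 and 0.66 in NR4, a difference of -1.47 (SE 0.19, limma adjusted p = 0.038). It stayed called in 6 of the 20 other settings. Without 1 of the 11 arrays its limma adjusted p rose to 0.078 to 0.37 for each array left out except NR4 stimulated replicate 1. Of the 29 zinc finger genes listed for the cluster, 8 were measured by probe sets with a single symbol. Their 12 probe sets held 3 called ones, 1 upward and 2 downward (0.0155% and 0.0222% of all probe sets), and the list was drawn up with earlier results of these data known.

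Cenps and Padi2 were the other named genes higher in NOD, and both lie on chromosome 4. Cenps encodes CENP-S, a histone-fold protein of the kinetochore that also acts in DNA repair. NOD arrays read 1.33 and 1.27, and NR4 arrays -0.81, -1.12 and -0.82. The difference was 2.22 (SE 0.17), or 4.65-fold, with a limma adjusted p of 7e-04, and it missed the threshold in the fit of the 5 stimulated arrays alone (adjusted p = 0.058). Of 37 probe sets of 19 centromere and kinetochore genes, Cenps alone was called, where 0.0377% of all probe sets were. The list's median difference was 0.13. Cenpl, a subunit of the inner kinetochore, read 0.62 without being called.

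Padi2 encodes a peptidylarginine deiminase, an enzyme that converts arginine in proteins to citrulline. It read 1.50 and 1.52 in NOD and -0.40, 0.00 and -0.41 in NR4. The difference was 1.78 (SE 0.17), or 3.44-fold (limma adjusted p = 0.0043). The call was lost without NOD replicate 1 (adjusted p = 0.091) and without NOD replicate 2 (adjusted p = 0.0997), while the difference stayed at 1.79 and 1.77. It was also lost in the fit of the 5 stimulated arrays alone (adjusted p = 0.25). The arrays overlapped for the 4 other deiminases, whose differences were 0.10 for Padi4, -0.28 for Padi1 and -0.02 each for Padi3 and Padi6. The 3 remaining called probe sets higher in NOD carry no single gene name. They include 1460442_at with a difference of 1.80, 1458274_at with 3.30 and 1442318_at with 2.96. The first lost its call without NOD replicate 2 and in the fit of the 5 stimulated arrays alone. The last pair lost their call without either NOD array. Of 18 other settings, 1460442_at was called in 16, 1458274_at in 13 and 1442318_at in only 5.

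Of the named genes lower in NOD, Cep85 and Ccdc28b also lie on chromosome 4. Cep85 encodes a protein of the centrosome. Its probe set 1432391_at read -3.86 and -3.50 in NOD and 0.16, 0.00 and 0.02 in NR4. The difference of -3.74 (SE 0.13) is 13.4-fold, with a limma adjusted p of 1.1e-06. The other probe set of Cep85 differed by -0.11 (SE 0.35), with arrays that overlapped, so the 2 measurements of this gene disagree. Ccdc28b encodes a coiled-coil protein tied to cilia. Its probe set 1459840_s_at read -2.76 and -3.08 in NOD and 0.44, 0.27 and 0.01 in NR4, a difference of -3.16 (SE 0.18), or 8.95-fold (limma adjusted p = 8.9e-05). The other 3 probe sets of Ccdc28b had the same sign and were not called, at -1.05, -0.71 and -0.25. As the median of its probe sets the gene differed by -0.82 and was not called.

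Srgap3 and Nsd1 were lower in NOD and lie off chromosome 4. Srgap3, on chromosome 6, encodes a protein of the SLIT-ROBO pathway. Its probe set 1424588_at read -3.35 and -2.61 in NOD and 1.06, 0.89 and 0.69 in NR4. The difference was -3.86 (SE 0.29), or 14.5-fold (limma adjusted p = 7e-04). The other probe set of Srgap3 read in the same direction at -0.43 (SE 0.21), without overlap of the arrays and without a call. Nsd1, on chromosome 13, encodes a methyltransferase of lysine 36 of histone H3. Its probe set 1435088_at read -1.80 and -1.77 in NOD and 0.02, 0.40 and 0.00 in NR4, a difference of -1.93 (SE 0.17), or 3.8-fold (limma adjusted p = 0.0031). Another probe set of Nsd1 read -0.79 (SE 0.16) with no overlap, and the remaining pair 0.15 and 0.05. The call of Nsd1 was lost without NOD replicate 1 (adjusted p = 0.076), without NOD replicate 2 (0.082), in the fit of the 5 stimulated arrays (0.16) and after quantile normalization (0.11). As the median of its probe sets Nsd1 differed by -0.40 and was not called. Of the 4 called probe sets without a single gene name that were lower in NOD, 1452426_x_at had the largest difference, -5.01 (SE 0.18, limma adjusted p = 1.1e-06), and 1445537_at differed by -4.52 (SE 0.33). Both were called in every other setting that retained them. The remaining pair, 1446175_at and 1452452_at, were called in 12 and 16 of 18.

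The same probe sets distinguished the strains without stimulation. In unstimulated cells 26 probe sets were called (0.0577% of those tested), 11 higher and 15 lower in NOD, and all 17 of the stimulated comparison were among them with the same sign. The 17 are 100% of one list and 65.4% of the other. The arrays of the conditions are separate, but the cells came from the same lots, so this is not an independent replication. Of the 17, the difference was smaller in size after anti-IgM in 7 and larger in 10. The 9 probe sets called in unstimulated cells only had the same sign after anti-IgM, with no overlap of the arrays in any of them. They are those of Dhrs3, Lrp8, Angptl7, Khdrbs1, Sfpq and Zfp691, the pair of Zfp991 and 1446474_at. The unstimulated count was 14 without either array numbered 2, and 113 with array weights, which gave those arrays the largest weights.

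Dhrs3, which encodes a reductase that turns retinaldehyde back into retinol, was the nearest of these to a call after anti-IgM. NOD arrays read 3.17 and 3.17, and NR4 arrays 0.00, -0.07 and -0.59. The difference was 3.39 (SE 0.45, limma adjusted p = 0.053), or 10.5-fold, beside 3.27 in unstimulated cells. It passed the threshold without NR4 unstimulated replicate 3 (adjusted p = 0.00088) and in the fit of the 5 stimulated arrays alone (0.029). None of the other 29 probe sets for retinoid metabolism and receptors was called, where 0.0377% of all probe sets were. The list's median was 0.00. Lrp8, a lipoprotein receptor, differed by -1.09 (limma adjusted p = 0.054) beside -1.02 unstimulated, and by -0.66 and -0.47 in its other probe sets. Khdrbs1, the RNA-binding protein SAM68, read -1.20 in one probe set, beside -1.74 unstimulated, and between -0.09 and 0.32 in the other 6.

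**Figure D2:**
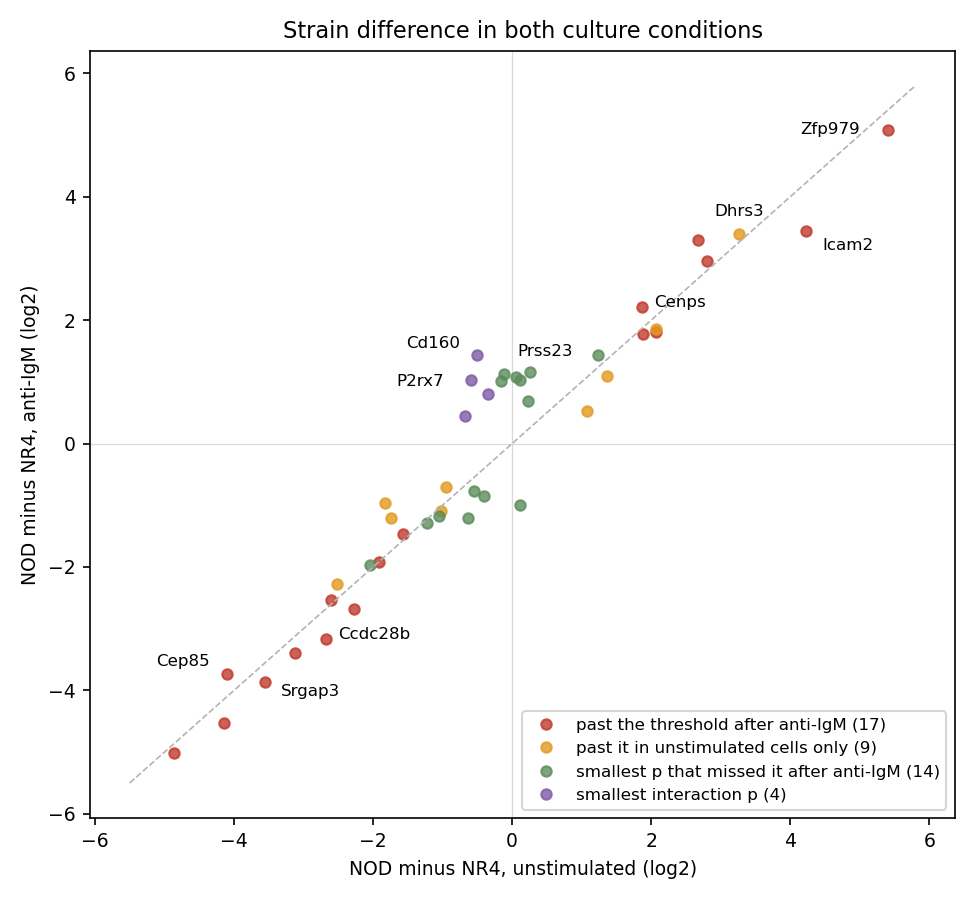
NOD minus NR4 difference in log2 units after anti-IgM (vertical axis) against the same difference in unstimulated cells (horizontal axis). Points are named probe sets and the dashed line marks equal differences. Zfp979 and Cep85 lie near the line, Icam2 below it (3.45 against 4.22), and Prss23, P2rx7 and Cd160 differ after anti-IgM with values near 0 or opposite in sign without it.

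Whether anti-IgM altered a strain difference was tested as an interaction, the difference after anti-IgM minus that in unstimulated cells. No probe set was called (0%). At an unadjusted p under 0.05 there were 716 probe sets, fewer than the 2251.8 expected from uniform p-values, and robust moderation gave 0 called and 680. Among the 17, Icam2 alone had such a p. Its NOD arrays read 4.04, 4.001 and 4.05 in unstimulated cells and 3.36 and 3.34 after anti-IgM, whereas its NR4 arrays lay between -0.24 and 0.00 throughout. The interaction was -0.78 (SE 0.14, unadjusted p = 0.00024, limma adjusted p = 1).

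Some genes with small unadjusted interaction p-values, none of which passed adjustment, showed a strain difference after anti-IgM and little or none before. Gnai1, the inhibitory G protein subunit alpha i1, read 0.30 and 0.00 in stimulated NOD cells and -0.99, -0.74 and -0.84 in stimulated NR4 cells. Its difference was 1.01 after anti-IgM and -0.15 before it (interaction 1.17, SE 0.21, unadjusted p = 0.00023, limma adjusted p = 1). The NR4 arrays were the ones that lay apart from the unstimulated values, which ran from -0.04 to 0.37 over both strains. The other 2 probe sets of Gnai1 overlapped between the strains after anti-IgM, at 0.06 and 0.23. Rabepk, an effector of the small GTPase Rab9, differed by 1.13 after anti-IgM and by -0.11 before, in 1 of its 4 probe sets. Plagl1, a zinc finger transcription factor, read 0.85 and 1.11 in stimulated NOD cells and -0.19, -0.20 and 0.07 in stimulated NR4 cells, beside a difference of 0.05 before (interaction unadjusted p = 0.001, limma adjusted p = 1). Its other 2 probe sets differed by 0.33 and 0.07 after anti-IgM. Prss23, a serine protease, read 1.04 and 1.19 in stimulated NOD cells and -0.22, -0.05 and 0.15 in stimulated NR4 cells. Its difference was 1.15 (SE 0.16, limma adjusted p = 0.072) beside 0.25 in unstimulated cells (interaction unadjusted p = 0.002, limma adjusted p = 1). The other 2 probe sets of Prss23 overlapped between the strains, at 1.01 (SE 0.52) and -0.07. Mmp12, macrophage elastase, differed by 1.02 beside 0.11 (interaction unadjusted p = 0.0019, limma adjusted p = 1).

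In other genes the sign of the difference was opposite in the conditions. Cd160, a receptor best known from NK and T cells, read 0.96 and 0.69 in stimulated NOD cells and -0.55, -0.80 and -0.50 in stimulated NR4 cells (difference 1.44, against -0.50 without stimulation). The interaction of 1.94 (SE 0.40) had an unadjusted p of 0.00064 and a limma adjusted p of 1. The other 3 probe sets of Cd160 differed by -0.14, 0.15 and -0.22 after anti-IgM, so this rests on 1 of 4. P2rx7, the ATP-gated channel P2X7, read 0.38 and 0.33 against -1.08, -0.52 and -0.43, a difference of 1.04 beside -0.59 unstimulated, and its other probe sets read -0.25 and -0.05. Oxsm and Glis3 had differences of 0.81 and 0.45 after anti-IgM and -0.35 and -0.68 before. The other 4 probe sets of Oxsm read between -0.27 and 0.18 after anti-IgM. Asph, an aspartyl hydroxylase, differed by -1.002 after anti-IgM and by 0.12 before, in 1 of its 6 probe sets. None of these passed adjustment, and so no strain difference is shown to depend on stimulation. The fit treated stimulated and unstimulated arrays as unpaired, though they came from the same lots. Deviations from the group means correlated between same-numbered unstimulated and stimulated arrays, at 0.63 and 0.16 in NOD and 0.32, 0.18 and 0.48 in NR4. Stimulated NOD replicate 2 correlated more with unstimulated NOD replicate 3 (0.49) than with replicate 2 (0.16). With stimulated NR4 replicates 3 and 2 it correlated at 0.51 and -0.15. The deviations of the 2 stimulated NOD arrays are exact opposites, so their correlations are not independent. The numbers are therefore not shown to mark matched lots. Leaving out a pairing of arrays can hide an interaction. With the replicate number as a block no interaction was called either. Since the numbers may not mark the pairs, that fit cannot decide whether pairing hid an interaction.

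**Figure D3:**
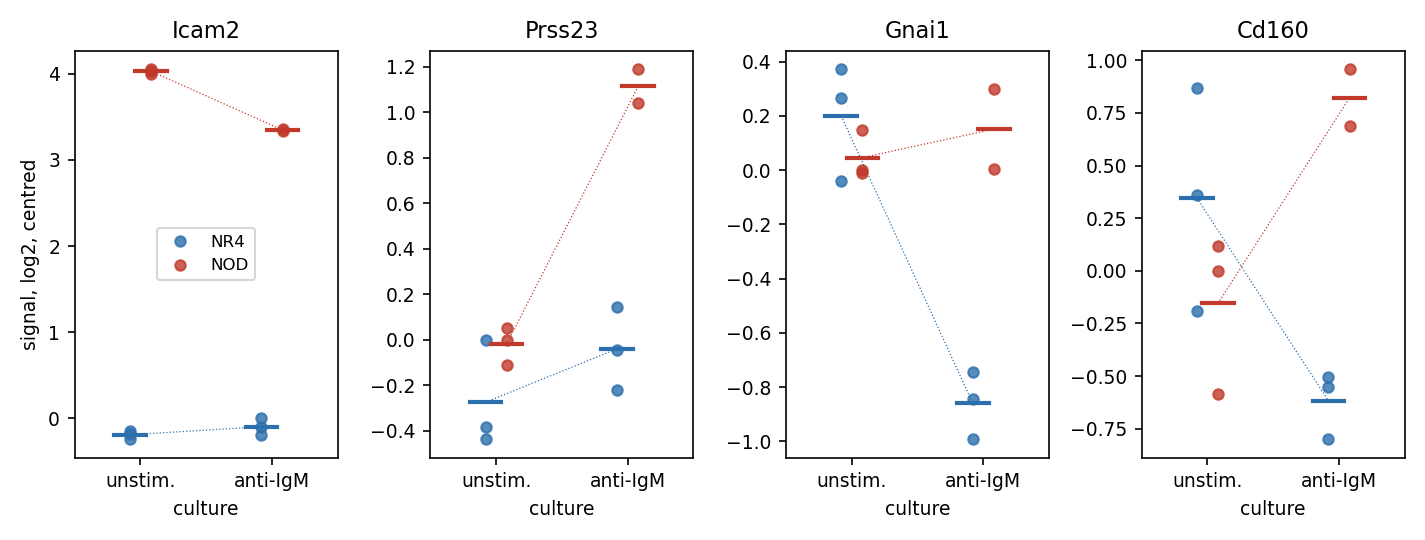
Centred log2 signal (vertical axes, each with its own scale) by culture for Icam2, Prss23, Gnai1 and Cd160, with NOD in red and NR4 in blue. Points are arrays, bars are group means and dotted lines join the means of a strain. Icam2 is separated in both cultures, while Prss23, Gnai1 and Cd160 (probe set 1456847_at) are separated after anti-IgM.

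Further genes missed the threshold with arrays that did not overlap, and each is given here by its probe set with the smallest p. Upward these included Osbpl9, an oxysterol-binding protein (1.44, beside 1.23 unstimulated), Angptl7 (1.10) and the checkpoint kinase Chek1 (0.70). Downward they included Txlna (-1.17), Hsd11b1, the enzyme that regenerates active glucocorticoid (-1.29, beside -1.23 unstimulated), the receptor phosphatase Ptprf (-0.78) and the aldo-keto reductase Akr1e1 (-1.97). The other probe sets of these genes were nearer to 0, at 0.04 to 0.38 for Osbpl9, -0.10 to 0.31 for Chek1, -0.03 and -0.39 for Txlna, -0.33 and -0.40 for Ptprf and -0.38 for Akr1e1, and Angptl7 and Hsd11b1 have only 1. Hsd11b1 read -0.88 and -1.08 in NOD and 0.75, 0.05 and 0.15 in NR4. Its limma adjusted p was 0.18, and those of this set ran from 0.092 for Txlna to 0.33 for Akr1e1. A pair of immunoglobulin kappa variable segments read -0.85 and -1.20, and such segments share sequence with their relatives.

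The called genes were set in order along chromosome 4, which NR4 carries in part from NOR. Of 2094 probe sets with a single symbol on chromosome 4, 7 were called (0.334%), against 3 of 32621 elsewhere (0.0092%). At an unadjusted p under 0.01 there were 49 on chromosome 4 (2.34%), 30 higher and 19 lower, and 286 elsewhere (0.877%), where 0.926% of all probe sets had such a p. The 1087 genes were divided into 10 parts by gene order. The ninth part, from Pla2g2a to Cenps, held 5 of the 7 called probe sets and had such a p in 8.99% of its probe sets. The seventh, from Zc3h12a to Stx12, held Ccdc28b (4.46%), and the eighth, from Fam76a to Pla2g5, held Cep85 (2.96%). The fifth, from Pde4b to Nasp, held none called and had 3.65%, 7 of 8 upward. The first to the fourth had 0 to 1.24%, the sixth, from Akr1a1 to Meaf6, 1.46%, and the last, from Pgd to Samd11, 0.905%.

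**Figure D4:**
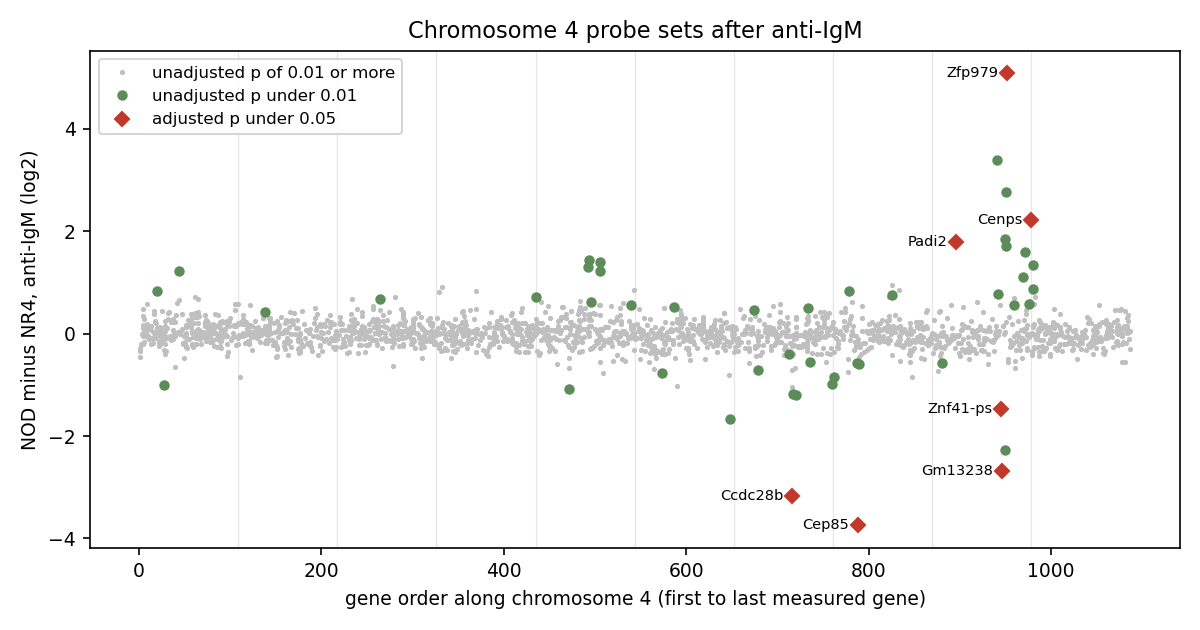
NOD minus NR4 difference after anti-IgM in log2 units (vertical axis) for the 2094 chromosome 4 probe sets in gene order (horizontal axis), with grey lines between the 10 parts. Red diamonds are called probe sets and green points have an unadjusted p under 0.01. The ninth part holds 5 of the 7 called probe sets, from Zfp979 at 5.08 to Gm13238 at -2.68.

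Immune genes of the Idd9 and Idd11 stretch were read as a list. Of 30 genes, 27 were measured by 56 probe sets, with a median difference of 0.05. Padi2 alone was called, where 0.0377% of all probe sets were. Tnfrsf1b, the type II receptor of TNF, read 0.67 and 0.65 in NOD and -0.34, 0.00 and -0.01 in NR4 (difference 0.78, SE 0.18). Fgr, a SRC-family kinase, read -0.35 and -0.59 against 0.39, 0.40 and 0.32 (difference -0.84, SE 0.17, limma adjusted p = 0.40). The lysosomal adaptor Laptm5, which lowers surface B cell receptor, differed by 0.50 in one of its 5 probe sets and by -0.11 to 0.34 in the others. Dffa, the inhibitor of the apoptotic nuclease, differed by 0.57. NOD and NR4 arrays were separated in each of these 4 probe sets, and none was called. The second probe sets of Tnfrsf1b (-0.03) and Dffa (-0.06) overlapped between the strains, whereas that of Fgr (-0.37) did not. Counts for the list at an unadjusted p under 0.05 were 6 upward and 2 downward of 56 (2.88% and 1.39% of all probe sets).

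Among genes of the receptor response no member was called, where 0.0377% of all probe sets were. Of these lists 2 had the highest medians, but a lean above 0 was not particular to them. Differences were positive in 31 of 45 immediate-early and 33 of 41 negative feedback probe sets. The same held for 24 of 32 of activation and costimulation surface genes and 32 of 46 of quiescence and migration genes. In the NF-kB list 16 of 32 were positive, and 22 of 45 for MHC and antigen presentation. The immediate-early transcription factors (24 genes, 45 probe sets) had a median difference of 0.22 after anti-IgM and 0.15 without, where the median over all probe sets was -0.00089. At an unadjusted p under 0.05 there were 8 upward and 0 downward (2.88% and 1.39% of all probe sets). Arrays were separated upward in 14 probe sets (31.1%) and downward in none, beside 8.39% and 5.7% of all probe sets. Their mean signal was 0.52 and 0.35 in the NOD arrays and 0.35, 0.17 and 0.13 in the NR4 arrays, so that 1 NR4 array was as high as a NOD array. Fos read 0.54 and 0.64 in NOD and 0.04, 0.00 and 0.12 in NR4 (difference 0.54, SE 0.14, limma adjusted p = 0.78). Klf4 differed by 0.68 (SE 0.18) in one probe set and 0.46 in the other. Atf3 differed by 0.47 (SE 0.16). Without NOD replicate 1 the upward count was 1 and the median 0.13, and without NR4 replicates 2 or 3 the count was 4. It was 10 without NOD replicate 2, 13 without NR4 replicate 1, 12 with the replicate block and 5 in the fit of the 5 stimulated arrays.

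Common readouts of receptor engagement gave no call. Egr1 read 0.16 and 0.16 in NOD and 0.12, 0.14 and 0.16 in NR4, a difference of 0.02 (SE 0.10, 95% interval -0.22 to 0.25). Cd69, an early activation marker, differed by 0.03 (SE 0.11, 95% interval -0.22 to 0.28). These probe sets moved little with anti-IgM itself, from -0.11 to 0.16 in NOD and from -0.24 to 0.14 in NR4 for Egr1, and from -0.06 to 0.08 and from -0.16 to 0.05 for Cd69, so they bear little on the strength of the response. Myc read 1.34 and 1.34 in NOD and 1.09, 0.30 and 1.01 in NR4, a difference of 0.54 (SE 0.28), and Nr4a1 1.07 and 1.05 against 0.86, 0.32 and 0.81, a difference of 0.40 (SE 0.30). In both, the NOD arrays lay above all NR4 arrays, NR4 replicate 2 was the lowest, and neither was called. Cd86, a costimulatory molecule, differed by 0.34 and 0.17 in its probe sets, and Cd79a, the signalling chain of the receptor, by 0.13 (SE 0.21).

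Genes of negative feedback (17 genes, 41 probe sets) had a median difference of 0.18 after anti-IgM and 0.04 without, with 7 upward and 0 downward at an unadjusted p under 0.05 (2.88% and 1.39% of all probe sets). Rgs1, a GTPase activator that limits chemokine receptor signalling, read 1.43 and 1.54 in NOD and 0.39, 0.82 and 0.74 in NR4. Its difference was 0.84 (SE 0.19, limma adjusted p = 0.58), beside 0.59 in unstimulated cells. Spry1 read 1.08 and 1.46 against 0.80, 0.16 and 0.00 (difference 0.95, SE 0.32), and Rgs2 differed by 0.18 to 0.39 in its 4 probe sets. The upward count was 2 in the fit of the 5 stimulated arrays, 3 after quantile normalization and 11 with the replicate block. It was 3 without NR4 replicate 2, 4 without NOD replicate 2, 5 without NOD replicate 1 or NR4 replicate 1, and 10 without NR4 replicate 3. With each stimulated array left out the median was 0.13 to 0.27.

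Cytokine and chemokine genes of B cells went both ways. Ccl3 and Ccl4, chemokines that attract T cells and are made on receptor engagement, differed by 1.09 (SE 0.37) and 0.66 (SE 0.21). Ccl4 read 1.39 and 1.36 in NOD and 0.59, 0.80 and 0.75 in NR4. Il10, which encodes an anti-inflammatory cytokine, read 0.58 and 1.12 in NOD and 1.38, 1.55 and 1.40 in NR4, a difference of -0.59 (SE 0.20). All 3 genes had separated arrays, and none was called. They had the same signs in unstimulated cells, at 0.46 for Ccl3, 0.50 for Ccl4 and -0.38 for Il10.

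Components of the receptor pathway itself (29 genes, 76 probe sets) had a median of 0.04. At an unadjusted p under 0.05 they had 5 upward and 3 downward (2.88% and 1.39% of all probe sets). The 3 downward ones were all of Ubash3b, a phosphatase that restrains Syk and Zap70 signalling, at -0.55, -0.57 and -0.66 beside -0.76, -0.65 and -0.76 in unstimulated cells. Cblb, a ubiquitin ligase that also restrains receptor signalling, differed by 0.52, 0.46 and 0.09 in its 3 probe sets. The inhibitory Fc receptor Fcgr2b differed by 0.00 to 0.59 in its 5 probe sets. The NF-kB list (32 probe sets) had a median of 0.00, with Rel at 0.41 (1.03 and 1.13 in NOD, 0.54, 0.56 and 0.90 in NR4). The genes of MHC and antigen presentation had a median of 0.00 and ribosome biogenesis factors 0.03. Activation and costimulation surface genes had 0.07, as did quiescence and migration genes. Each list was without a call, where 0.0377% of all probe sets were called. Of the 46 probe sets of the last list, 11 were separated upward (23.9%) and none downward, beside 8.39% and 5.7% of all probe sets. Cd80, a costimulatory ligand of T cells, differed by 1.23 (SE 0.49) in one of its 4 probe sets and by 0.07 to 0.45 in the others, without a call. In the glucocorticoid response list (10 genes, 26 probe sets, median 0.13), Klf9 had its smallest p at 0.87 and Tsc22d3 at 0.57, without a call, and other probe sets of both genes read near 0.

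Interferon-stimulated genes were the list with the most downward members. The 31 measured genes (46 probe sets) had a median difference of -0.16 after anti-IgM and -0.12 without. None was called, where 0.0377% of all probe sets were. After anti-IgM 0 were upward and 8 downward at an unadjusted p under 0.05 (2.88% and 1.39% of all probe sets). Ifit2, which binds foreign RNA, read -1.10 and -0.13 in NOD and 1.73, 0.00 and 0.36 in NR4, a difference of -1.31 (SE 0.45). Oasl2, an antiviral gene, read -0.42 and -0.31 against 1.95, 0.00 and 0.79 (difference -1.27, SE 0.42), and Mx1, an antiviral GTPase, differed by -1.14 (SE 0.39) with overlapping arrays. NR4 replicate 1 was the highest array in all of these, and its mean over the list was 0.56, against -0.18 and 0.03 in the other NR4 arrays and -0.15 and 0.03 in the NOD arrays. Without that array the median was 0.05, with 3 upward and 3 downward. Without NOD replicate 1 the median was -0.04, with 1 upward and 2 downward. The sign of the median thus changed only without NR4 replicate 1, and its size fell without NOD replicate 1. It was -0.21 without NOD replicate 2, -0.27 without NR4 replicate 2 and -0.24 without NR4 replicate 3.

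**Figure D5:**
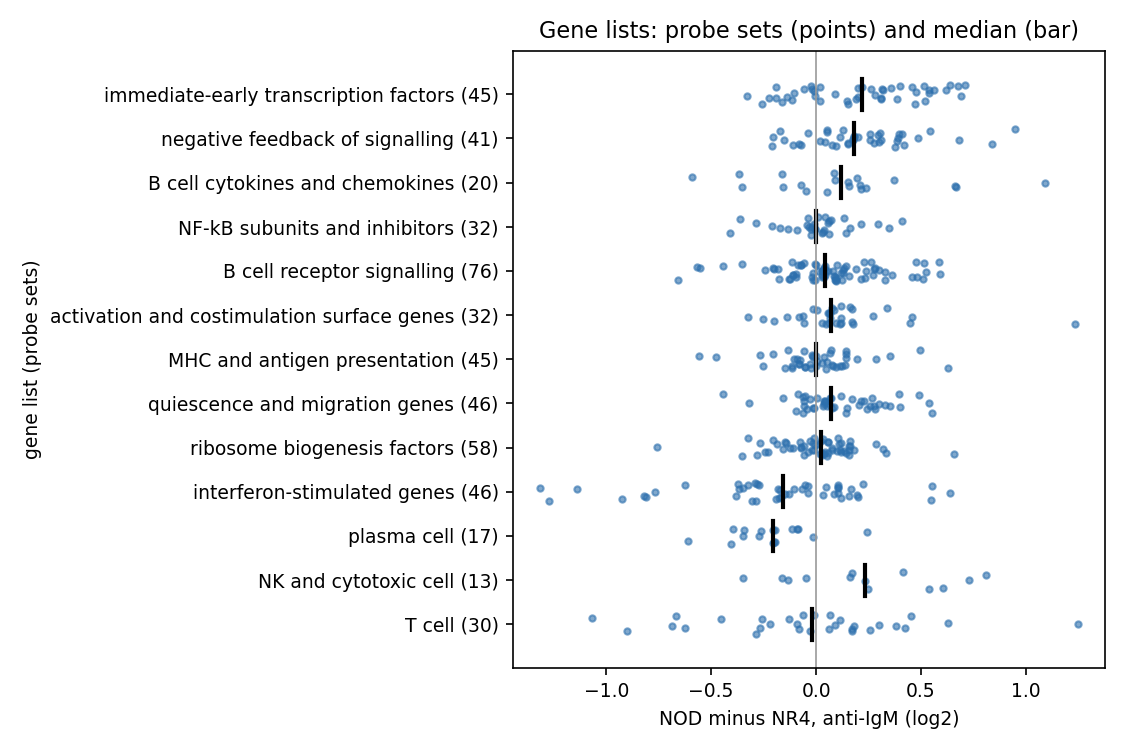
NOD minus NR4 difference after anti-IgM in log2 units (horizontal axis) for the probe sets of 13 gene lists (vertical axis, number of probe sets in brackets). Points are probe sets and black bars are medians. Medians lie between -0.20 for plasma cell markers and 0.23 for NK and cytotoxic cell markers, and none of the points shown is called.

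Marker lists for 14 cell types held no called probe set in the stimulated comparison. With 0.0377% of all probe sets called, lists of this size would seldom hold one, so this says little about cell types. Pan B cell markers (22 probe sets) had a median of 0.11, follicular markers 0.09, marginal zone markers -0.02, B-1 markers 0.12 and transitional markers 0.01. Among the last, the complement-related receptor Cd93 differed by 0.86 and 0.88 in 2 of its 5 probe sets and by -0.26 to 0.04 in the others. Plasma cell markers (17 probe sets) had a median of -0.20 after anti-IgM and -0.17 without. After anti-IgM 16 of 17 were below 0 and 8 separated downward (47.1%, beside 5.7% of all probe sets). Their mean was 0.01 and -0.03 in the NOD arrays and 0.30, 0.19 and 0.14 in the NR4 arrays. Sdc1, which encodes CD138, differed by -0.61 (SE 0.26) in one of its 4 probe sets and by -0.20 to -0.09 in the others, and Jchain, which joins IgM and IgA, by -0.27 (SE 0.14). The share of plasma cells was not measured otherwise, and its part in the differences was not tested.

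Cells that the depletion should remove were read in the same way. T cell markers (30 probe sets) had a median of -0.02 and means of 0.14 and -0.04 in the NOD arrays and 0.14, 0.12 and 0.02 in the NR4 arrays. Single markers went in opposite directions, with Cd3g at 1.25 and Cd28 at 0.45 and 0.09, and Cd4 at -0.67 and -1.07, Cd8a at -0.90 (1 of 5 probe sets, the others -0.69 to -0.22) and Cd8b1 at -0.63. NK and cytotoxic markers (13 probe sets) had a median of 0.23 after anti-IgM and 0.24 without, and after anti-IgM 4 of them were below 0. Gzma differed by 0.81 (SE 0.52) and Klrk1 by 0.73 (SE 0.39), while Prf1 differed by -0.35 and -0.13 and Gzmb by -0.16, the last with NOD below all NR4 arrays. The list's means were 0.31 and 0.05 in NOD and 0.22, -0.12 and -0.29 in NR4. Monocyte and macrophage markers had a median of 0.03, dendritic cell markers -0.06, neutrophil markers -0.07, erythroid markers -0.14 and platelet markers -0.12. Endothelial and stromal markers, among which Icam2 is not listed though endothelium expresses it, had a median of -0.12, and Kdr, a receptor of vascular growth factor, differed by -1.01. Because the values are centred, it cannot be said which of these markers are near background, and their part in the strain differences was not tested.

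Smaller differences leaned upward in number. At an unadjusted p under 0.05 there were 1295 probe sets higher in NOD (2.88%) and 625 lower (1.39%), 1920 together (4.26%) where 2251.8 would be expected from uniform p-values. This lean depends on the arrays and settings. The split was 639 higher and 588 lower without NOD replicate 1, 1777 and 1891 without NR4 replicate 3, and 1877 and 614 without NOD replicate 2. With the replicate number as a block it was 2184 and 2107, and after quantile normalization of the centred values 849 and 488.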

How the data were processed

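RNA of B cells was amplified in 1 cycle, labelled with biotin and hybridized to 11 Affymetrix Mouse Genome 430 2.0 arrays, per the labels. The deposited table gives log2 values. The submitters' processing notes name RMA, a method that corrects background, normalizes by quantiles and summarises probes by median polish. The table does not state its log base, which was taken as 2. All 45101 rows have a median of 0 over the 11 arrays, so each probe set had been centred. The labels say nothing of this step. Software versions are not given in the sources used. Arrays have no read depth, and their number limits the precision.

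The 64 controls were left out. Of 45037 probe sets, 34945 had 1 gene symbol in the platform annotation, 932 several and 9160 none. By Entrez identifier 99.4% of those with 1 symbol were found in the RefSeq table of GRCm38.p6, which gave names, chromosomes and gene order. Groups and replicate numbers came from the sample titles.

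In R 4.3.3, limma 3.58.1 estimated 4 group means from the 11 arrays, leaving 7 residual degrees of freedom, with empirical Bayes moderation. The 3 contrasts were NOD minus NR4 after anti-IgM, the same in unstimulated cells, and their difference. Tests are two-sided, with Benjamini-Hochberg adjustment over all probe sets of a contrast. The fit was tested on simulated data with independent noise on each array, so that test did not cover the correlations between arrays. Promoters were aligned with Biopython 1.88.

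Same-numbered stimulated NOD and NR4 arrays had correlations of deviations of 0.35 and -0.15 over only 2 pairs, so pairing is not established for that contrast. For unstimulated NOD and NR4 the values were 0.60, 0.36 and 0.56, all over 0.1, so there the numbers pair the arrays, and the block is an alternative in both. Other alternatives were fits of 5 or 6 arrays, gene medians, quantile normalization, filters on probe sets, robust moderation, array weights, equal replicate numbers and leaving out each array. Quantile normalization acted on the centred values, so it equalized deviations from the medians over the arrays and not signal levels.

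Named genes were the called probe sets, the other probe sets of their genes, up to 10 genes each way with the smallest p among those that missed the threshold without overlap of arrays, probe sets called in unstimulated cells, called list members or the 3 smallest p, the 8 smallest interaction p-values, and Cd69, Cd86, Egr1, Myc, Nr4a1 and Cd79a. A further item of the rule is not reported here. Predicted genes could be passed over. Further list members and relatives of Zfp979 were added after their values were seen. Members and lists were chosen with earlier results of these data known.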

Additional observations from a re-analysis of the deposited data

How the results depend on the processing

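For the stimulated strain difference, 17 probe sets were called. The count was 9 in the fit of the 5 stimulated arrays (8 of them shared), 9 of 18193 genes for gene medians, and 10 for probe sets with 1 symbol, where fewer were tested. With the replicate number as a block it was 22 (16 shared), and leaving out 1 array gave 8 to 18. In unstimulated cells the count was 26, against 17 in the fit of those 6 arrays, 11 for gene medians, 14 for arrays numbered 1 and 2, 113 with array weights and 33 with the block, and 14 to 24 with 1 array left out. The interaction had 0 called in each setting, with 255 to 2256 probe sets or genes at an unadjusted p under 0.05. Only 2 named probe sets changed sign, both as gene medians, Zfp991 to 0.029 and Oxsm to -0.11, where probe sets of a gene disagree. Icam2, Zfp979, Cep85 and Srgap3 were called in all 20 other settings, Znf41-ps in 6, and 1442318_at in 5 of the 18 that retained it. Leaving out 1 NOD stimulated array leaves 1, whose spread is assumed to equal that of the other groups. A filter on dim probe sets was not run, since centred values hold no levels, and moderation was robust without an intensity trend for the same reason. Gene lists were recomputed with arrays left out after the data were seen. Signal over background is unknown for every probe set, which limits all of these results.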

Other observations

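Other values in the stimulated comparison fall outside the lists. Array weights estimated from the spread within groups were 0.87 for both stimulated NOD arrays and 0.47, 0.44 and 0.72 for stimulated NR4 replicates 1, 2 and 3, whereas unstimulated arrays numbered 2 had weights of 5.39 (NOD) and 4.45 (NR4). Probe sets that differed by at least 2-fold numbered 128 after anti-IgM and 54 in unstimulated cells. For the interaction 138 reached that size, 127 upward and 11 downward, and none was called by limma.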
